A study of Mus musculus with 26 samples.

Results

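The genes described here encode the subunits of the mitochondrial oxidative phosphorylation complexes. They were taken from probe sets that the array annotation pairs with a single symbol, with the brightest probe set standing for each gene. The symbols kept are those of the Ndufa, Ndufb, Ndufc, Ndufs and Ndufv series, Sdha to Sdhd, the Uqcr genes, Cyc1, Cycs, Cox4 to Cox8 and the Atp5 series. This gave 83 of the 19938 genes measured, and all 83 are annotated as protein coding. Complex I holds 33 of them, complex II 4, complex III 9, cytochrome c 1, complex IV 19 and complex V 17. Ndufa4 was placed with complex IV, where its protein sits. Ndufb1 is not among the members, Ndufb4 and Cox7c lie on probe sets with several symbols, and neither Ndufab1 nor Atpif1 matches these symbols.

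Complex I, NADH dehydrogenase, and complex II, succinate dehydrogenase, pass electrons to ubiquinone in the inner mitochondrial membrane. Complex III, the cytochrome bc1 complex, passes them on to cytochrome c, and complex IV, cytochrome c oxidase, hands them to oxygen. Complexes I, III and IV pump protons, and complex V, the ATP synthase, uses their return to make ATP. Most subunits are encoded in the nucleus, and the catalytic cores of complexes I, III and IV also contain subunits from mitochondrial DNA.

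RNA was measured on 26 Affymetrix mouse gene arrays from Ba/F3 cells, a murine pro-B cell line that grows on interleukin-3. All lines also carry gp130, the signal chain of the IL-6 family, and were kept on Hyper-IL-6, a fusion of IL-6 with its soluble receptor. Cells with natural receptors carried the 2 chains to which IL-22 binds, IL-10R2 with IL-22Rα1. They received IL-22 (n = 4) or were left untreated (n = 4). Cells with synthetic receptors expressed IL-10R2 fused to a nanobody against mCherry and IL-22Rα1 fused to a nanobody against GFP. They were given a GFP-mCherry fusion protein (n = 6), given mCherry-Fc (n = 6) or left untreated (n = 6). All cells were washed and starved without serum for 4 h, and proteins were added at 100 ng/ml for 2 h. The labels do not say whether replicates came from separate cultures or whether a line is 1 clone, so p-values measure the spread between these arrays, which may be technical.

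Of the pro-B markers, Cd79a and Cd79b had group means of 8.8 to 9.7 log2 units, whereas Vpreb1, Igll1, Ebf1, Pax5, Rag1, Rag2, Dntt and Cd93 lay between 3.7 and 6.4. Itgam, an integrin chain of myeloid cells, averaged 9.7 on IL-22 arrays and 10.3 on untreated natural arrays, against 5.4 to 5.6 in the 3 synthetic groups. Each value below is a log2 intensity, and fold changes are differences of group means on that scale. A gene is said to have risen or fallen when limma's adjusted p, Benjamini-Hochberg over all 19938 genes, was under 0.05.

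IL-22 left the subunit genes without a called change in cells with natural receptors. By limma's test 0 of 83 members were higher and 0 lower, against 5.39% and 6.03% of all genes, and 4 members had an unadjusted p under 0.05. The log2 fold changes ran from -0.24 for Ndufv3 to 0.18 for Atp5pb, with a median of 0.004, while the median over all genes was -0.024. The 95% interval of a member, not adjusted for the number of genes, reached a median of 0.150 log2 units on either side. The adjusted threshold asks for more than that, so somewhat larger changes could also be missed with 4 arrays a group. Medians were -0.017 for complex I, -0.037 for complex II, -0.023 for complex III, -0.004 for complex IV and 0.011 for complex V. Without IL-22 array 5, 3 complex I members, Ndufa6, Ndufa13 and Ndufv3, were called lower.

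Sdhb, the iron-sulfur subunit of succinate dehydrogenase, had 9.80, 9.75, 9.72 and 9.87 on the IL-22 arrays and 9.71, 9.63, 9.62 and 9.59 on the untreated natural arrays. Every IL-22 array was above every untreated one, by a mean of 0.15 ± 0.06 (SE), and the adjusted p was 0.145. It was the only member whose IL-22 arrays all lay above the untreated ones, as did those of 5.03% of all genes. Ndufa12, an accessory subunit of complex I, was the only one whose IL-22 arrays all lay below, as did those of 6.34% of all genes. Cycs, the soluble electron carrier cytochrome c, had 10.64, 10.97, 10.98 and 10.95 with IL-22 and 10.79, 10.75, 10.79 and 10.88 without it. IL-22 array 1 lay below all untreated arrays and the other 3 above them. Cox5a, a matrix-side subunit of cytochrome c oxidase, had 9.48, 9.32, 9.45 and 9.49 with IL-22 and 9.30, 9.41, 9.32 and 9.34 without it, and these groups overlapped. Its difference of 0.09 ± 0.07 (SE) had an adjusted p of 0.527.

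**Figure D1:**
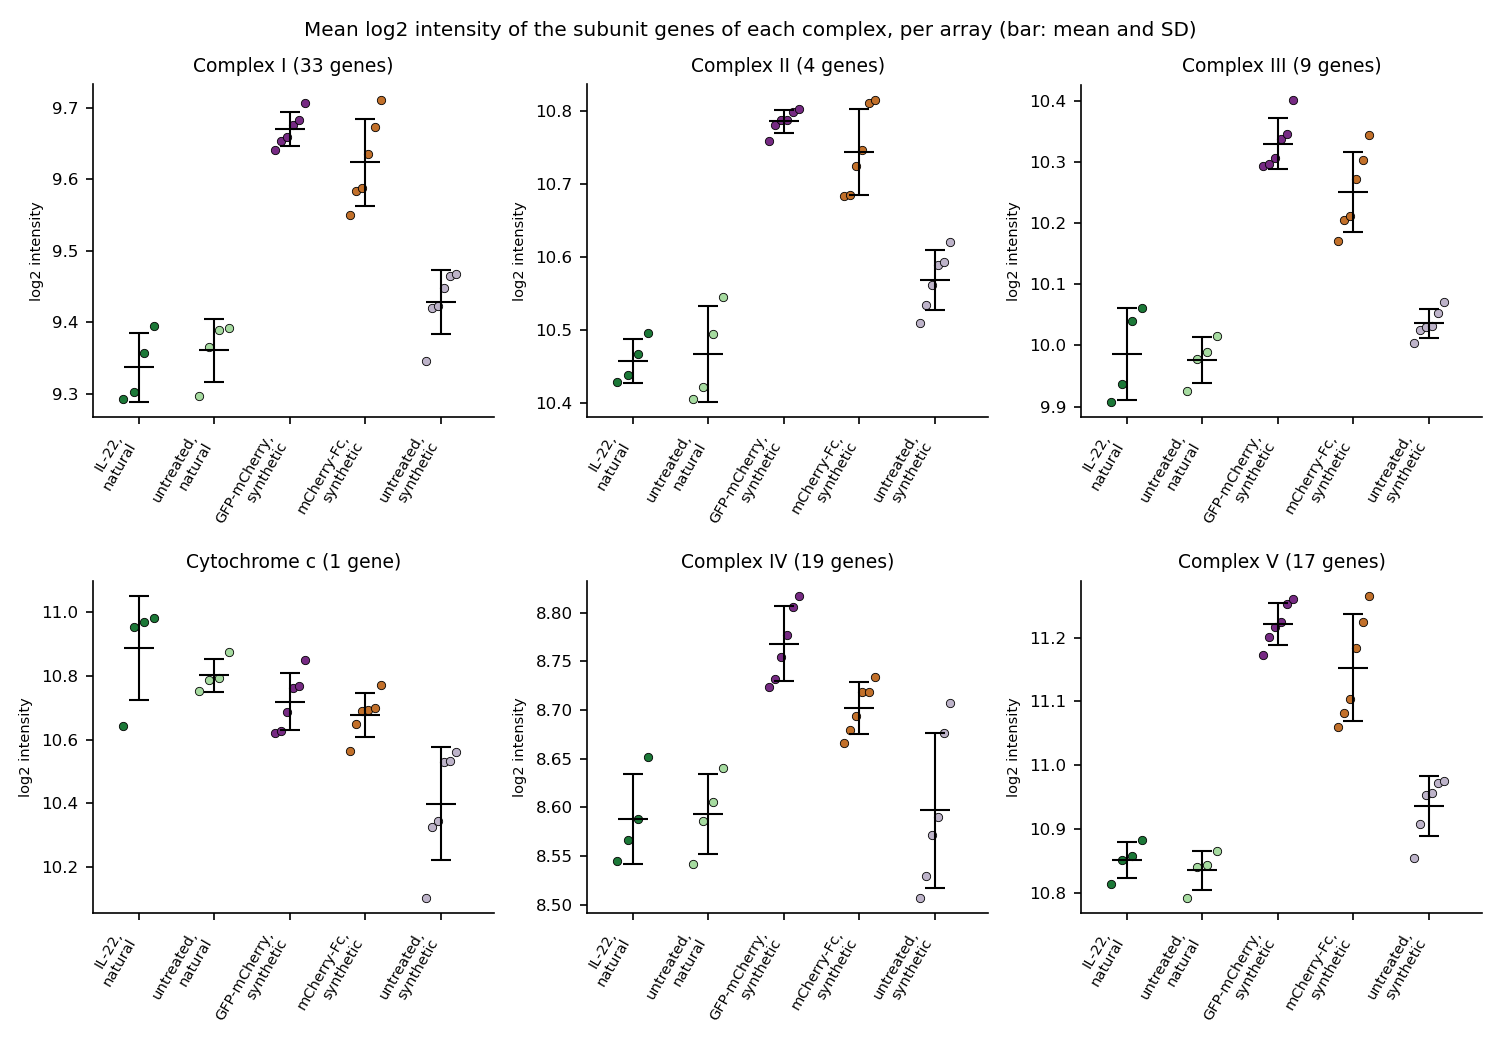
Mean log2 intensity of the members of each complex on every array, with points sorted within a group and bars for the mean and SD. Arrays of GFP-mCherry cells lie above all arrays of untreated synthetic cells in every panel, and arrays of IL-22 cells and untreated natural cells overlap in every panel.

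Cells with synthetic receptors differed. After GFP-mCherry, 54 of 83 members rose and 1 fell, against 14.2% and 11.8% of all genes. After mCherry-Fc, 48 rose and 3 fell, against 14.0% and 13.0% of all genes. The comparisons share the untreated synthetic arrays, so their counts are not independent of each other. The changes were small: the median member was 0.240 higher on the log2 scale with GFP-mCherry and 0.175 higher with mCherry-Fc, where the medians of all genes were -0.042 and -0.036. The mean over all members lay at 9.90 to 9.95 on the GFP-mCherry arrays and 9.80 to 9.93 on the mCherry-Fc arrays, against 9.62 to 9.71 on the untreated synthetic arrays. No treated array overlapped an untreated one. Gene by gene, all GFP-mCherry arrays lay above all untreated ones for 47 members and below them for 1, against 10.0% and 4.11% of all genes. All mCherry-Fc arrays lay above them for 35 members and below them for 1, against 7.85% and 3.46%. In these bulk samples, more RNA per cell and more cells that carry it cannot be told apart.

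Brightness moved with this result. Among the 6677 genes with a mean of at least 8, 35.4% rose with GFP-mCherry and 35.8% with mCherry-Fc when these genes were tested alone, and 57 and 52 of the 71 members at that level rose. Of these genes 12.3% and 7.79% fell, with 1 and 0 of the 71 members among them. Genes with means of 6 to 7 had median changes of -0.11 with GFP-mCherry and -0.13 with mCherry-Fc, and genes with means of 8 to 9 had 0.11 and 0.13. After quantile normalization of the arrays these medians lay within 0.03 of 0. The members called higher were then 47 with GFP-mCherry and 35 with mCherry-Fc, where 10.1% and 7.76% of all genes were higher. The 8 members at 8 to 9 still had a median change of 0.32 with GFP-mCherry, and of 0.08 with mCherry-Fc. For members at 9 to 10, at 10 to 11 and above 11, medians were 0.26, 0.22 and 0.17 with GFP-mCherry. With mCherry-Fc they were 0.17, 0.13 and 0.09. How far brightness accounts for single calls was not tested.

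**Figure D2:**
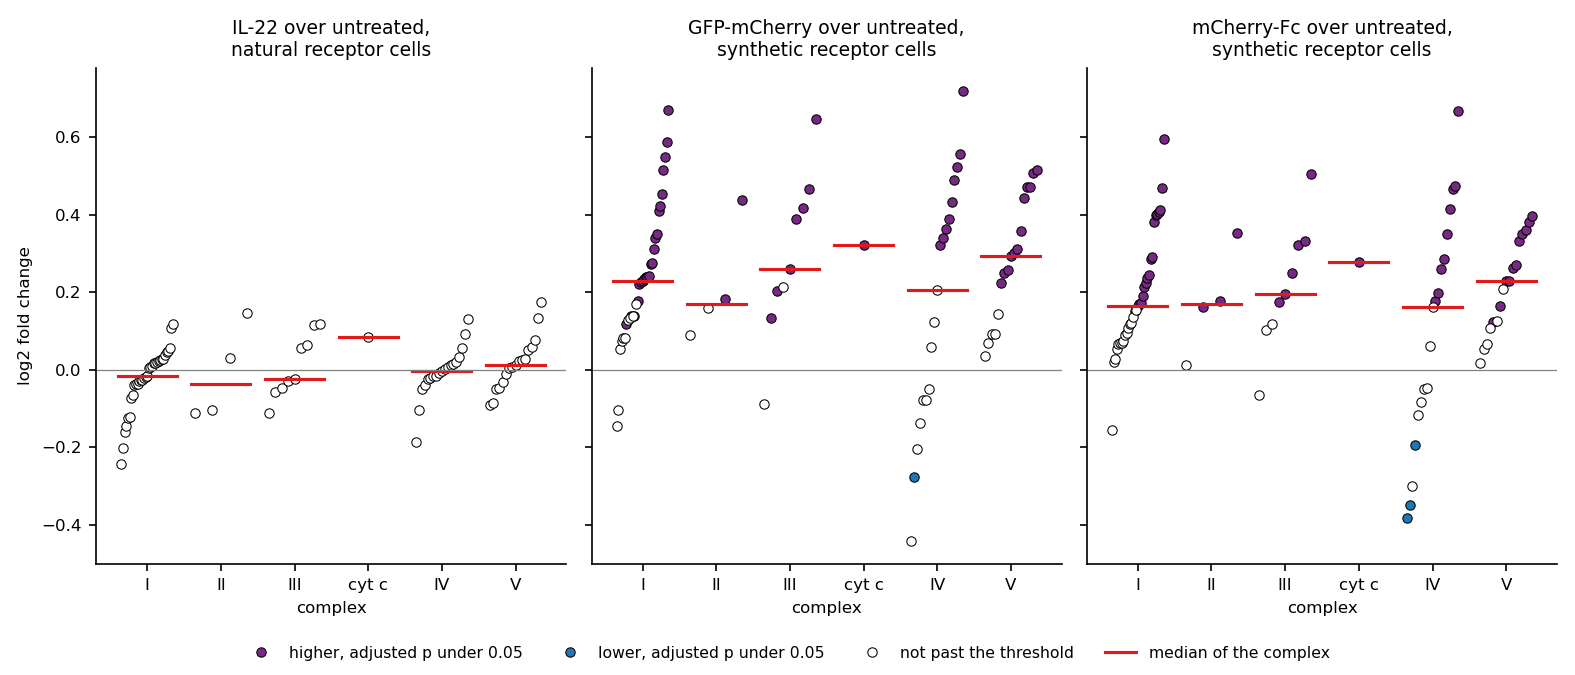
Log2 fold change of each of the 83 members, by complex, for IL-22 over untreated natural cells, GFP-mCherry over untreated synthetic cells and mCherry-Fc over untreated synthetic cells. Filled points passed the adjusted threshold, 0 of 83 for IL-22, 55 for GFP-mCherry and 51 for mCherry-Fc, and red lines are medians.

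In complex I, 23 of 33 members rose with GFP-mCherry and 18 with mCherry-Fc, and none fell in either comparison. Tested within low or within high replicate numbers alone, 1 complex I member fell with GFP-mCherry in each range. The median change was 0.228 with GFP-mCherry and 0.165 with mCherry-Fc. Members of the proton-pumping membrane arm rose in 13 of 18 cases with GFP-mCherry, those of the NADH-oxidising N module in 7 of 10 and those of the ubiquinone-reducing Q module in 3 of 5. Ndufs5, an accessory subunit on the outer face of the membrane arm, had the largest change. It ran from 8.85 through a median of 9.09 to 9.26 with GFP-mCherry and from 8.93 through 8.95 to 9.08 with mCherry-Fc, against 8.14 through 8.41 to 8.62 in untreated synthetic cells. No treated array overlapped an untreated one. The rise was 0.67 ± 0.08 (SE), or 1.59-fold, with GFP-mCherry (adjusted p = 5.78e-07) and 0.60 ± 0.08, or 1.51-fold, with mCherry-Fc (adjusted p = 6.02e-06).

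Ndufb8 and Ndufb6, accessory subunits of the membrane arm, rose by 0.59 and 0.55 with GFP-mCherry and by 0.41 and 0.47 with mCherry-Fc. Ndufa2, a small subunit of the N module, rose by 0.52 and 0.40 in the same order of treatments. The 6 core subunits measured changed by 0.13 to 0.35 with GFP-mCherry, from Ndufs8 to Ndufv2, and by 0.07 to 0.29 with mCherry-Fc, from Ndufs8 to Ndufs7. Ndufv1, which binds NADH and the flavin, lay at 9.77 to 9.94 with GFP-mCherry and 9.72 to 9.86 with mCherry-Fc, against 9.51 to 9.72 untreated. It rose by 0.24 with GFP-mCherry (adjusted p = 0.000391) and by 0.17 with mCherry-Fc (adjusted p = 0.00951), and the mCherry-Fc call was lost with the replicate number as a block (adjusted p = 0.0965).

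Ndufs1, the largest iron-sulfur subunit, was 0.24 higher with either protein (adjusted p = 0.0200 for GFP-mCherry and 0.0222 for mCherry-Fc). Its treated arrays, 9.99 to 10.19 and 9.88 to 10.18, overlapped the untreated range of 9.60 to 10.09. Untreated arrays 7, 9 and 11 stood at 9.61, 9.61 and 9.60 and untreated arrays 12, 13 and 14 at 9.91, 10.09 and 9.98. Within low replicate numbers Ndufs1 was 0.40 higher with GFP-mCherry and 0.33 higher with mCherry-Fc, and within high numbers 0.08 and 0.14 higher, which did not pass (adjusted p = 0.488 and 0.189). The GFP-mCherry call was lost without GFP-mCherry array 13 or untreated array 7, 9 or 11, with adjusted p of 0.0553 to 0.0608. The mCherry-Fc call was lost without untreated array 7, 9 or 11 or mCherry-Fc array 13 or 14, and with the replicate block (adjusted p = 0.0591). The 10 members that did not pass with GFP-mCherry did not pass with mCherry-Fc either. They were Ndufa5, Ndufa6, Ndufa8, Ndufa12, Ndufb3, Ndufb11, Ndufc1, Ndufc2, Ndufs8 and Ndufv3, with changes from -0.15 for Ndufv3 to 0.17 for Ndufc2. These changes average over the number ranges. Ndufb3, for example, had 7.72 to 7.91 on untreated arrays 7, 9 and 11 and 8.25 to 8.50 on untreated arrays 12 to 14. With GFP-mCherry it had 7.84 to 8.22 on arrays 7, 9 and 11 and 7.90 to 8.11 on arrays 12 to 14.

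In complex II, 2 of 4 members rose with GFP-mCherry and 3 with mCherry-Fc. Sdhb lay at 9.92, 9.97 and 10.19 (lowest, median and highest) with GFP-mCherry and at 9.86, 9.90 and 10.00 with mCherry-Fc, against 9.51, 9.56 and 9.66 untreated. Its treated arrays were all above its untreated ones, and it rose by 0.44 ± 0.05 (SE; adjusted p = 2.75e-07) and 0.35 ± 0.05 (adjusted p = 1.14e-05). Sdha, the flavoprotein that oxidises succinate, was 0.16 higher with GFP-mCherry (adjusted p = 0.0567) and 0.18 higher with mCherry-Fc (adjusted p = 0.0333), and the mCherry-Fc value passed. Within low replicate numbers Sdha was 0.29 and 0.22 higher, and within high numbers 0.03 and 0.13 higher without passing. With the replicate block the mCherry-Fc value had an adjusted p of 0.111, and leaving out untreated array 7, 9 or 11 or mCherry-Fc array 13, 14 or 15 also took it over the threshold. Of the membrane anchors, Sdhd rose by 0.18 and 0.16. Both calls were lost after quantile normalization (adjusted p = 0.0698 and 0.222), and the mCherry-Fc call without untreated array 9 or 14 or mCherry-Fc array 8, 9 or 13. Sdhc was 0.09 and 0.01 higher and did not pass.

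In complex III, 7 of 9 members rose with GFP-mCherry and 6 with mCherry-Fc. Uqcrq, a small membrane subunit, ran from 9.68 through 9.76 to 9.98 with GFP-mCherry and from 9.54 through 9.66 to 9.76 with mCherry-Fc, against 8.98 through 9.16 to 9.35 untreated. The treated arrays did not overlap the untreated ones, and the rises were 0.65 ± 0.07 (SE; adjusted p = 1.08e-07) and 0.50 ± 0.07 (adjusted p = 8.53e-06). Both catalytic subunits from the nucleus rose. Cyc1, the cytochrome c1 haem protein, rose by 0.42 with GFP-mCherry and 0.33 with mCherry-Fc, and Uqcrfs1, the Rieske iron-sulfur protein, by 0.26 and 0.25. Uqcrc2, a core protein facing the matrix, was lower by contrast, at -0.09 and -0.07, without passing the test.

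Cycs ran from 10.62 through 10.72 to 10.85 with GFP-mCherry and from 10.56 through 10.69 to 10.77 with mCherry-Fc, against 10.10 through 10.44 to 10.56 untreated. Every treated array was above every untreated one. The rises were 0.32 ± 0.07 (SE; adjusted p = 0.00129) and 0.28 ± 0.07 (adjusted p = 0.00510).

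In complex IV the counts split by kind of gene. Of the 10 subunits of the common enzyme 9 rose with GFP-mCherry and 9 with mCherry-Fc, with median changes of 0.411 and 0.319. Cox6c, a membrane subunit, did not pass, at 0.20 and 0.16. Its treated arrays, 11.32 to 11.62, all lay above untreated arrays 7, 9 and 11, at 11.07, 11.06 and 11.17, and overlapped untreated arrays 12, 13 and 14, at 11.43, 11.62 and 11.50. Of the 8 isoforms restricted to certain tissues or conditions none rose. The isoform genes had means below 7 log2 units, apart from Cox6a2, a range where the median gene was lower with either protein.

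Cox5a changed more than any other member. It lay at 10.06, 10.16 and 10.25 (lowest, median and highest) with GFP-mCherry and at 10.01, 10.09 and 10.26 with mCherry-Fc, against 9.29, 9.45 and 9.57 untreated. The lowest treated array was well above the highest untreated one. Cox5a rose by 0.72 ± 0.06 (SE), or 1.65-fold, with GFP-mCherry (adjusted p = 2.53e-10) and by 0.67 ± 0.06, or 1.59-fold, with mCherry-Fc (adjusted p = 3.47e-09). Cox8a, a small membrane subunit, rose by 0.56 and 0.47, and Ndufa4 by 0.52 and 0.41. Cox5b, the zinc-binding subunit, rose by 0.49 and 0.47. Cox4i1, the common form of the largest nuclear subunit, had 10.33 to 10.45 with GFP-mCherry and 10.22 to 10.36 with mCherry-Fc, against 9.89 to 10.21 untreated, and rose by 0.34 and 0.26. The mCherry-Fc rise of Cox4i1 had an adjusted p of 0.0794 after quantile normalization.

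Cox8c, an isoform best known from testis, fell. Its arrays lay at 5.93 to 6.09 with GFP-mCherry and 5.80 to 6.03 with mCherry-Fc, all below the 6.12 to 6.43 of untreated synthetic arrays. The changes were -0.28 ± 0.06 (SE; adjusted p = 0.000486) and -0.35 ± 0.06 (adjusted p = 5.07e-05). Cox8b, the muscle form, was lower by -0.20 with GFP-mCherry, which did not pass, and by -0.38 with mCherry-Fc (adjusted p = 0.00348). Cox7b2, a testis form, was -0.20 lower with mCherry-Fc (adjusted p = 0.0449), and that call was lost after quantile normalization (adjusted p = 0.143) and with the replicate block (adjusted p = 0.140). It was also lost without any of untreated arrays 7, 9, 11, 12 or 13 or mCherry-Fc arrays 13, 14 or 15.

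Within the isoform families the common form was the one that rose. Cox6a1 rose by 0.43 and 0.35 while its muscle form Cox6a2, whose untreated arrays spread from 6.54 to 8.08, changed by -0.44 ± 0.30 (SE) and -0.30 ± 0.30 without passing. Cox6b1 rose by 0.32 and 0.18, and the testis form Cox6b2 changed by -0.08 and -0.12. Cox7a2 rose by 0.39 and 0.29, whereas the muscle form Cox7a1 changed by 0.12 and -0.05. Cox7a2l, which joins complexes III and IV into supercomplexes, changed by 0.06 in either comparison. Cox4i2, the form of lung and hypoxia, changed by -0.08 with either protein and Ndufa4l2, a hypoxia-induced relative of Ndufa4, by -0.05, without passing.

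**Figure D3:**
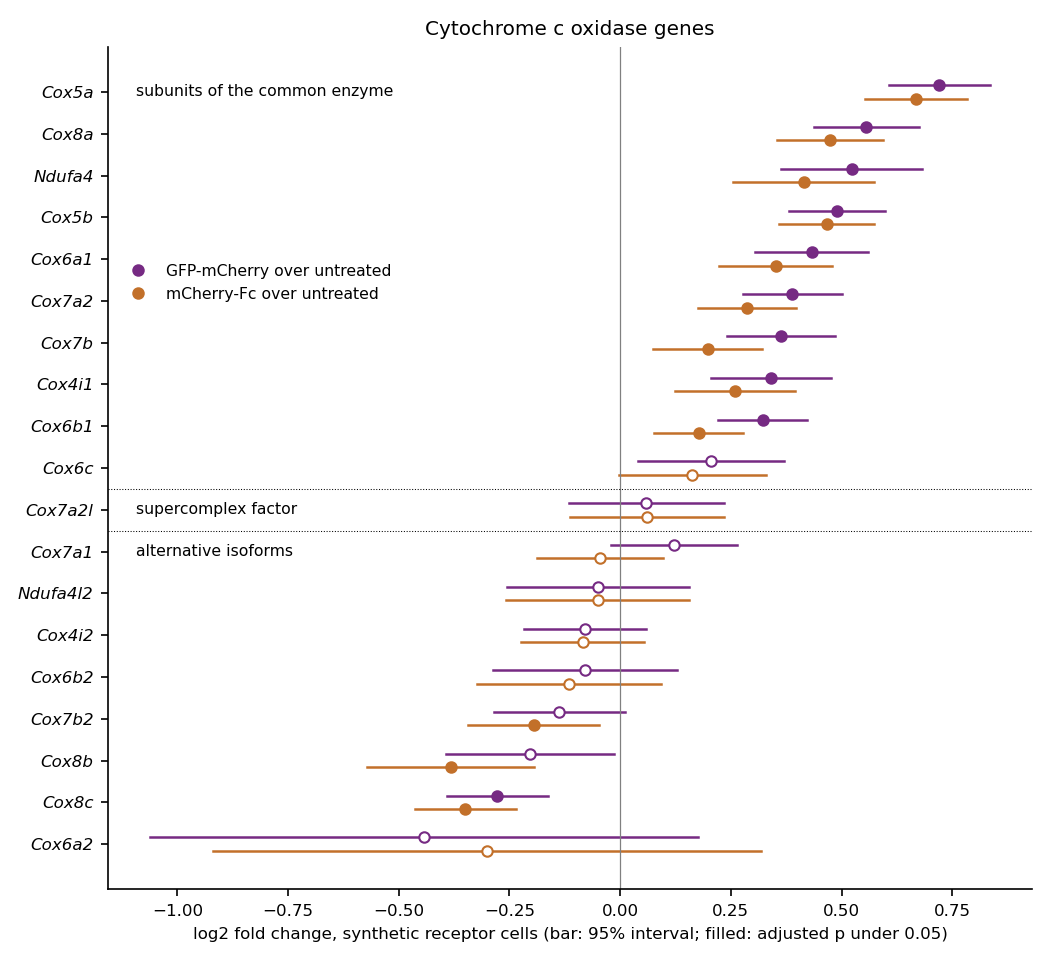
Log2 fold change with 95% interval for the 19 complex IV genes, GFP-mCherry over untreated and mCherry-Fc over untreated, in synthetic receptor cells. Filled points passed the adjusted threshold: 9 of 10 common subunits rose in each comparison, and Cox8c fell in both.

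In complex V, 12 of 17 members rose with GFP-mCherry and 11 with mCherry-Fc, with median changes of 0.294 and 0.230. All 5 small membrane subunits rose in each comparison, with medians of 0.472 and 0.362. Atp5k, subunit e of the dimer interface, lay at 8.63, 8.71 and 8.76 (lowest, median and highest) with GFP-mCherry and at 8.32, 8.58 and 8.88 with mCherry-Fc, against 8.06, 8.21 and 8.32 untreated. The GFP-mCherry arrays were tightly grouped and the mCherry-Fc arrays spread widely, the lowest of them only just above the highest untreated array. The rises were 0.51 ± 0.07 (SE; adjusted p = 5.01e-06) and 0.40 ± 0.07 (adjusted p = 0.000182). Atp5md, known as DAPIT, rose by 0.52 and 0.36, and Atp5l, subunit g, by 0.47 and 0.38.

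In the F1 head, Atp5d, the delta subunit of the central stalk, rose by 0.44 and 0.35, and Atp5b, the catalytic beta subunit, by 0.26 and 0.23. Atp5a1, the alpha subunit beside it, had 12.16 to 12.33 with GFP-mCherry and 12.10 to 12.36 with mCherry-Fc, against 12.01 to 12.19 untreated. These ranges overlapped, and the changes of 0.14 (adjusted p = 0.0570) and 0.13 (adjusted p = 0.0901) did not pass. Atp5c1, the gamma subunit, was 0.07 and 0.05 higher, also without passing. The c ring is made from 3 genes for the same mature protein. Atp5g1 rose by 0.22 and 0.16 and Atp5g3 by 0.30 and 0.27, while Atp5g2 changed by 0.09 and 0.11 without passing. Of the peripheral stalk, Atp5o and Atp5j rose in both comparisons, and Atp5h and Atp5pb did not pass in either. Atpif1, which inhibits ATP hydrolysis by the F1 head and is no subunit, rose by 0.23 with GFP-mCherry (adjusted p = 0.00114) and 0.18 with mCherry-Fc (adjusted p = 0.0108).

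**Figure D4:**
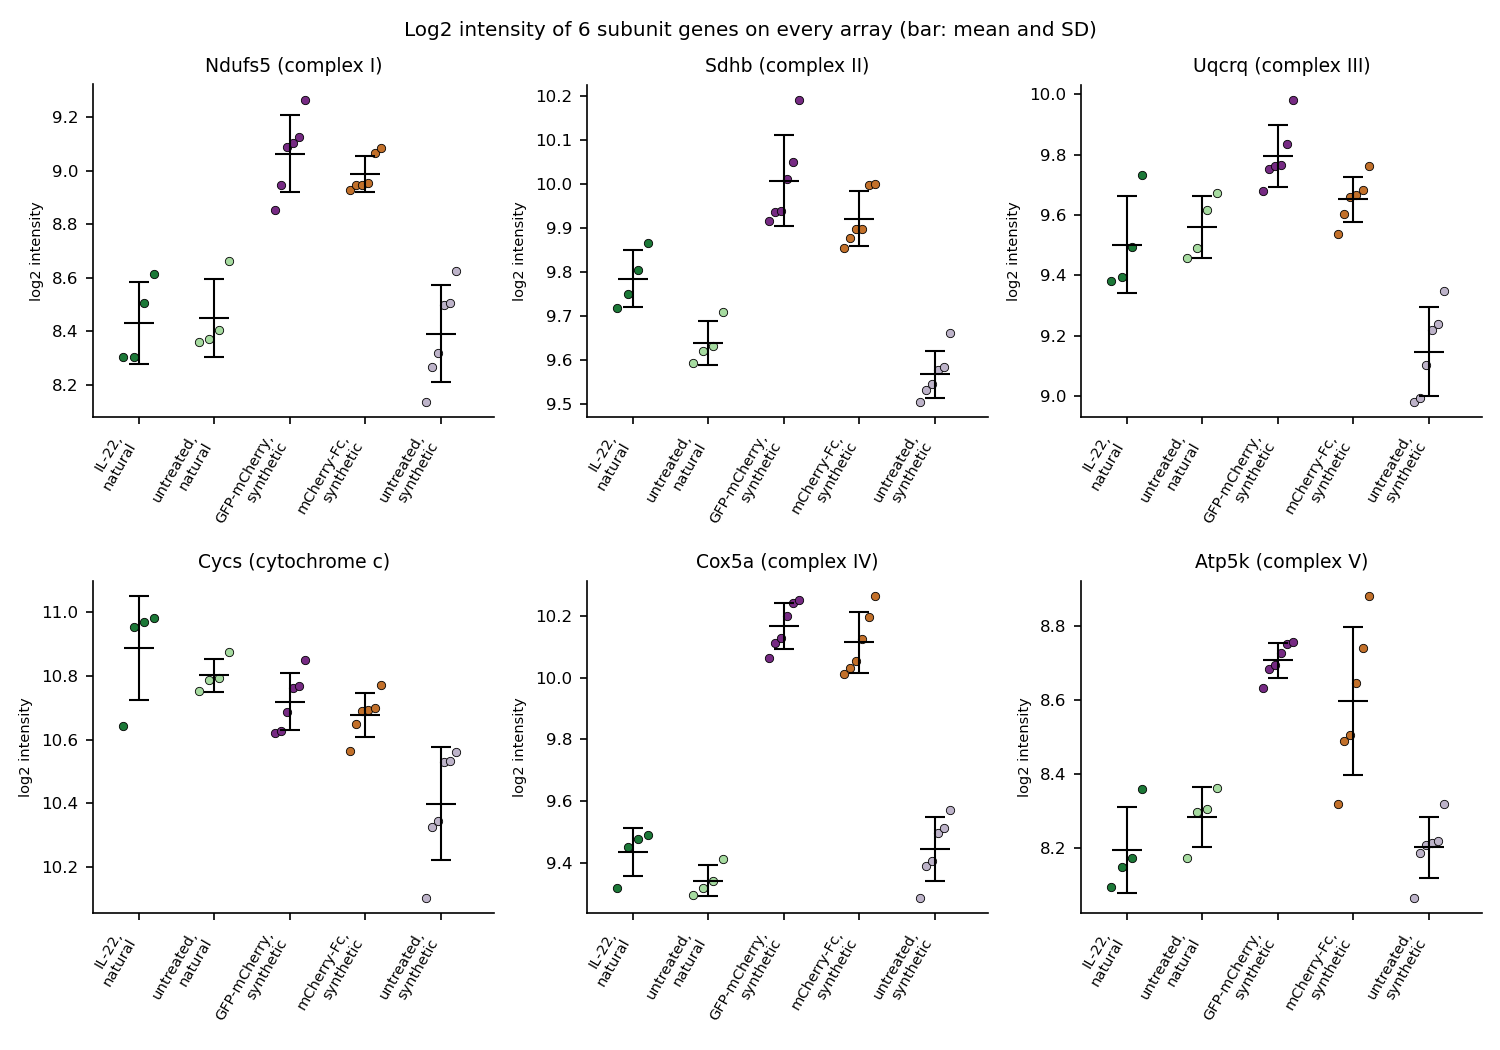
Log2 intensity of Ndufs5, Sdhb, Uqcrq, Cycs, Cox5a and Atp5k on all 26 arrays, with points sorted within a group and bars for the mean and SD. In each panel the GFP-mCherry and mCherry-Fc arrays lie above the untreated synthetic arrays, and Uqcrq and Cycs are lower in untreated synthetic than in untreated natural cells.

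The comparisons were repeated within ranges of replicate numbers. Among the low-numbered arrays, 7 to 11 (3 per group), 51 members rose and 3 fell with GFP-mCherry and 31 rose and 2 fell with mCherry-Fc, where 16.7% and 13.7% of all genes rose. Among the high-numbered arrays, 12 to 15 (3 per group), 48 rose and 1 fell with GFP-mCherry, and 44 rose and 2 fell with mCherry-Fc, where 11.6% and 12.6% of all genes rose. The mean over all members was 9.80 to 9.84 on mCherry-Fc arrays 8 to 10 and 9.87 to 9.93 on mCherry-Fc arrays 13 to 15. For 17 members the annotation lists 26 further probe sets. All 26 changed in the direction of the one used with GFP-mCherry, 15 of them past the threshold, and 23 of 26 did so with mCherry-Fc, 15 past the threshold. Some of these probe sets may read near-identical copies of the gene, which was not tested.

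Since the members of different complexes rose together, their promoters were searched for motifs of factors known to bind respiratory chain genes. RefSeq promoters (mouse build GRCm38.p6, 250 bases before to 50 after the start) were at hand for 67 of 83 members and for 27025 genes in all. Letters were matched on either strand, with N for any base. The NRF1 motif GCGCANGCG lay in 19 of 67 members' promoters (28.4%), against 6.47% of all promoters. The GABP or ETS motif CCGGAAG lay in 16 (23.9%), against 9.12%, and the YY1 motif AAGATGGCG in 6 (8.96%), against 1.49%. The CRE motif TGACGTCA lay in 5 (7.46%), against 1.88%, and the ERR motif AAGGTCA in 7 (10.4%), against 4.66%. Shares were closer for the SP1 motif GGGCGG, in 28 (41.8%) against 35.9%, and for the E-box CACGTG, in 6 (8.96%) against 7.24%.

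Carrying a motif went with little difference in response for NRF1. Members with it had a median change of 0.27 with GFP-mCherry and members without it 0.25. The medians were 0.41 with and 0.24 without the GABP or ETS motif, and 0.47 with and 0.24 without the ERR motif, which rests on 7 genes. With mCherry-Fc they were 0.18 with or without NRF1, 0.21 with and 0.17 without GABP or ETS, and 0.38 with and 0.17 without ERR. Carriers of YY1 or the E-box changed less. With GFP-mCherry, YY1 had 0.21 with and 0.26 without, the E-box 0.23 and 0.26, SP1 0.27 and 0.24, and CRE 0.26 and 0.25. With mCherry-Fc, YY1 had 0.14 with and 0.19 without, the E-box 0.17 and 0.19, SP1 0.20 and 0.18, and CRE 0.25 and 0.18. These are descriptions of letters in a window and say nothing of binding in these cells.

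Shown here are the 250 bases before the start, 5′ to 3′ on the gene's own strand, for the member of each complex that rose most with GFP-mCherry among those with a promoter sequence. Capitals mark motif matches. The window searched also holds a GABP or ETS match for Sdhb and for Atp5md and an SP1 match for Cycs outside the stretch shown.
Ndufs5, chr4:123718187-123718436, minus strand, with an ERR match at 228 to 222 and an NRF1 match at 98 to 90 bases before the start: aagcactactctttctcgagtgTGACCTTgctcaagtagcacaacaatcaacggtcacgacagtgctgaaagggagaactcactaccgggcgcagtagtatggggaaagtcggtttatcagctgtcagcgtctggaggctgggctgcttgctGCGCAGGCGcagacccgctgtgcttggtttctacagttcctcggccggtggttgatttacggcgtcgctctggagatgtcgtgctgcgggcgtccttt
Sdhb, chr4:140961021-140961270, plus strand, with SP1 matches at 152 to 147, 132 to 127 and 104 to 99 bases before the start: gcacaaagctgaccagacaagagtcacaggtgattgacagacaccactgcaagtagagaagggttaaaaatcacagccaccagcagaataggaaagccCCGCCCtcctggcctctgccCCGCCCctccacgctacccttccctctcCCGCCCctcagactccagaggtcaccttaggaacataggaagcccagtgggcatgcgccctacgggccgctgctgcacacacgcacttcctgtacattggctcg
Uqcr10, chr11:4704345-4704594, minus strand, with none of the motifs in the window: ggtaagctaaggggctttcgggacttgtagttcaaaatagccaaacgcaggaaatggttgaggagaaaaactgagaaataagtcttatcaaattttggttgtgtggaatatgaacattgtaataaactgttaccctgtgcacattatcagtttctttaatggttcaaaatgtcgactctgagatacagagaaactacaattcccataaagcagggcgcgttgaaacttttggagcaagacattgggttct
Cycs, chr6:50566570-50566819, minus strand, with a CRE match at 169 to 162 and an NRF1 match at 61 to 53 bases before the start: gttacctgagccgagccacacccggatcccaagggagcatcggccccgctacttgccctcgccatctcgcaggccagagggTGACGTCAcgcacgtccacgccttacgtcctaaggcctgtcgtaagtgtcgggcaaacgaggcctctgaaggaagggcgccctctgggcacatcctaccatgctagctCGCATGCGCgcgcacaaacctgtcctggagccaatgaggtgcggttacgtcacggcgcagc
Cox5a, chr9:57520982-57521231, plus strand, with an SP1 match at 13 to 8 bases before the start: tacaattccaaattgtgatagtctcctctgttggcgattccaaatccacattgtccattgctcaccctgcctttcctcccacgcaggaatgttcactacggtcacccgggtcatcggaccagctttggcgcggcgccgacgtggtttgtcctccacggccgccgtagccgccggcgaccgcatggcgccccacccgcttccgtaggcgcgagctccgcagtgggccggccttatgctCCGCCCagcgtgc
Atp5md, chr19:47090648-47090897, minus strand, with an SP1 match at 80 to 75 bases before the start: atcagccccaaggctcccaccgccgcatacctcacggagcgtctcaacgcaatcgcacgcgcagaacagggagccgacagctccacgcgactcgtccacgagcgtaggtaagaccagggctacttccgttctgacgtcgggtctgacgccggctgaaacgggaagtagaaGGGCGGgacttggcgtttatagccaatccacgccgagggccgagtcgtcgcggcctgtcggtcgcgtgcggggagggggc

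GFP-mCherry was also compared with mCherry-Fc directly. By limma's test 0 members were higher and 0 lower in GFP-mCherry than in mCherry-Fc cells, against 0.722% and 0.371% of all genes, and 11 members had an unadjusted p under 0.05. The difference was above 0 for 73 of 83 members, against 10151 of all 19938 genes, with a median of 0.053. That median was 0.107 within low replicate numbers, 0.011 within high ones and 0.019 with the replicate number as a block. The largest was Atp5e, the epsilon subunit of the ATP synthase, at 0.26 ± 0.08 (SE; adjusted p = 0.200). Uqcr11, a small complex III subunit, lay at 8.72, 8.79 and 8.90 (lowest, median and highest) with GFP-mCherry against 8.48, 8.59 and 8.73 with mCherry-Fc. These ranges overlapped slightly, and the difference was 0.19 ± 0.06 (adjusted p = 0.152). After quantile normalization Uqcr11 and Cox7b were called higher with GFP-mCherry. Cox5a differed by 0.05 ± 0.06 and Ndufs5 by 0.08 ± 0.08. All GFP-mCherry arrays lay above all mCherry-Fc arrays for 2 members, Cox7b and Atp5j2, and below them for 0, against 1.51% and 1.45% of all genes. Tested among genes with a mean of at least 8 alone, 2 members, Uqcr11 and Atp5j2, were higher and 0 lower, against 1.93% and 1.59%.

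The responses of the lines were compared directly, as the change with GFP-mCherry or mCherry-Fc in synthetic cells minus the change with IL-22 in natural cells. The GFP-mCherry response exceeded the IL-22 response for 37 members and was below it for 1, against 9.23% and 4.40% of all genes. The mCherry-Fc response exceeded it for 23 and was below it for 1, against 8.76% and 4.60%. Among genes with a mean of at least 8 tested alone, 26.5% and 26.1% of genes and 44 and 31 of 71 members were higher. In that test 8.75% and 7.16% of genes were lower, and 0 members. The median difference was 0.261 for GFP-mCherry and 0.202 for mCherry-Fc, where all genes had a median of -0.016 in each.

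Uqcrq had the largest excess, 0.71 with GFP-mCherry and 0.56 with mCherry-Fc, followed by Ndufs5 at 0.69 and 0.61 and Cox5a at 0.63 and 0.58. Complex I contributed 13 of the 37 members higher with GFP-mCherry, complex II 2, complex III 4, complex IV 9 and complex V 9. Cox8c was the member below, by -0.27 (adjusted p = 0.0402) and -0.34 (adjusted p = 0.00922), and these calls were lost with the replicate block (adjusted p = 0.0617 and 0.0546). The GFP-mCherry call was also lost without IL-22 array 1, 3 or 5, untreated natural array 2 or 5, GFP-mCherry array 7, 11, 12, 13 or 14, or untreated synthetic array 7, 9 or 12. The excess of Cox7a2 with mCherry-Fc, 0.28, was also lost with the block (adjusted p = 0.247), as were the excesses of Cyc1 and Ndufv1 with GFP-mCherry (adjusted p = 0.0812 and 0.0924). Within high replicate numbers, where natural cells have 1 IL-22 array and 2 untreated arrays, 10 members were higher with GFP-mCherry and 7 with mCherry-Fc, against 2.27% and 2.60% of all genes. The proteins act on different receptors in different lines, so protein, receptor and line cannot be told apart in these differences.

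Untreated synthetic and untreated natural cells were compared to see where the members stood before treatment. In untreated synthetic cells 13 members were higher and 2 lower than in untreated natural cells, against 8.60% and 6.62% of all genes. When genes with a mean of at least 8 were tested alone, 20 of 71 members were higher and 2 lower, against 24.7% and 14.8% of genes. Without overlap of the arrays, 7 members were higher and 2 lower, against 5.19% and 4.86% of all genes. Among those called were Ndufs1 (0.25), Ndufv2 (0.25), Ndufs3 (0.19), Sdha (0.23), Uqcrc1 (0.18), Uqcrc2 (0.20), Atp5a1 (0.26) and Atp5c1 (0.20). For Ndufs1 and Sdha the untreated synthetic arrays 7, 9 and 11, at 9.60 to 9.61 and 10.86 to 10.88, lay inside the untreated natural ranges of 9.43 to 9.62 and 10.68 to 10.92, and arrays 12 to 14 lay above them. Atp5c1 lay at 11.56, 11.62 and 11.71 (lowest, median and highest) in untreated synthetic cells, all above the 11.44, 11.43, 11.40 and 11.42 of untreated natural cells. Its adjusted p was 0.00190. Ndufa4 was 0.28 higher (adjusted p = 0.0243).

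Uqcrq and Cycs were lower in untreated synthetic cells. Uqcrq had 8.98, 9.16 and 9.35 there (lowest, median and highest), below the 9.49, 9.46, 9.62 and 9.67 of untreated natural cells, a difference of -0.41 ± 0.08 (SE; adjusted p = 0.000391). Cycs had 10.10, 10.44 and 10.56, below 10.79, 10.75, 10.79 and 10.88, a difference of -0.40 ± 0.08 (adjusted p = 0.000581). With GFP-mCherry the synthetic cells reached 9.68 to 9.98 for Uqcrq and 10.62 to 10.85 for Cycs, so that Uqcrq lay just above the untreated natural arrays and Cycs overlapped them. The mean over 3 probe sets of Cycs gave no call. Cox6a2 was 0.92 log2 units lower, at -0.92 ± 0.34, but its arrays spread over more than a log2 unit in synthetic cells and the adjusted p was 0.0644.

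The line comparison rests on few arrays and on the pooled spread. Fitted on the untreated arrays alone, 2 members were higher and 2 lower, and the 2 higher were Atp5a1 and Ndufa4, where 4.28% of all genes were higher. The number higher was 3 without untreated natural array 4, 5 without untreated natural array 5, 7 without untreated synthetic array 13 and 6 without untreated synthetic array 14, where 5.05%, 6.16%, 6.63% and 6.64% of all genes were higher. The lines share no replicate number, so line and number cannot be told apart. Of 15 measured markers of other lineages, 4 were lower in untreated synthetic cells. Their summed level, as log2, was 10.95 to 11.06 in untreated synthetic and 11.22 to 13.21 in untreated natural arrays, and Itgam alone differed by -4.75 log2 units. The part of this difference in the results was not tested.

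Genes around the complexes were counted in the same way. Of 48 measured assembly factors, 24 rose and 1 fell with GFP-mCherry, and 23 rose with mCherry-Fc, with median changes of 0.190 and 0.184. Of all genes, 14.2% rose and 11.8% fell with GFP-mCherry, and 14.0% rose with mCherry-Fc. Among genes with a mean of at least 8 tested alone, 35.4% and 35.8% rose. Ecsit, a complex I assembly factor, rose by 0.59 and 0.61. Sdhaf1, which assembles the iron-sulfur subunit of complex II, rose by 0.84 with GFP-mCherry and was 0.60 higher with GFP-mCherry than with mCherry-Fc (adjusted p = 5.65e-07). Cox15, an enzyme of haem A synthesis, fell by 0.16 with GFP-mCherry. With IL-22, Tmem126b and Uqcc3, assembly factors of complexes I and III, fell by 0.68 and 0.35, and Foxred1 rose by 0.20.

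For the genes of fuel supply, the shares over all genes are again 14.2% with GFP-mCherry and 14.0% with mCherry-Fc, and 35.4% and 35.8% among genes with a mean of at least 8. In the citric acid cycle, 6 of 13 rose with GFP-mCherry and 7 with mCherry-Fc, and Cs, citrate synthase, rose by 0.28 and 0.32. Of 11 genes of pyruvate entry, 5 and 7 rose. Pdp1, a phosphatase that activates pyruvate dehydrogenase, rose by 0.48 with GFP-mCherry and 0.67 with mCherry-Fc, and fell by 0.44 with IL-22. Of 10 genes of ubiquinone synthesis 2 rose and 1 fell in each comparison: Coq7 rose by 0.32 and 0.38, Coq6 by 0.23 and 0.24, and Coq5 fell by 0.27 and 0.20. Of 8 other enzymes that reduce ubiquinone 3 and 2 rose, and Gpd2, the mitochondrial glycerol phosphate dehydrogenase, rose by 0.51 with IL-22. Of 7 carriers of nucleotides and phosphate 2 rose with GFP-mCherry and 1 with mCherry-Fc, with Slc25a3, the phosphate carrier, at 0.24 with GFP-mCherry.

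Of 19 regulators of mitochondrial biogenesis, 7 rose and 1 fell with GFP-mCherry and 6 rose with mCherry-Fc. Of all genes, 14.2% and 14.0% rose. Among genes with a mean of at least 8 tested alone, 35.4% and 35.8% rose. Pprc1, a coactivator related to PGC-1, rose by 0.67 with GFP-mCherry, by 0.79 with mCherry-Fc and by 0.97 with IL-22. Tfam, which packages and transcribes mitochondrial DNA, rose by 0.54 and 0.56 with the synthetic ligands and was -0.16 lower with IL-22, without passing (adjusted p = 0.548). Tfb1m, a ribosomal RNA methylase of mitochondria, fell by 0.52 with IL-22. Nrf1, Gabpa and Esrra, the genes of the factors behind the NRF1, GABP and ERR motifs, did not pass with GFP-mCherry, with mCherry-Fc or with IL-22, with changes of -0.17 to 0.20. Ppargc1a, which encodes PGC-1α, averaged 4.5 over all arrays and did not pass either, and Ppargc1b rose by 0.20 with GFP-mCherry.

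Among wider groups, 56 of 77 mitochondrial ribosomal protein genes rose with GFP-mCherry and 55 with mCherry-Fc, and 16 of 24 import genes rose in each. Of 54 cytosolic ribosomal protein genes, 30 rose and 2 fell with GFP-mCherry, and 23 rose and 2 fell with mCherry-Fc. The shares that rose were 14.2% and 14.0% of all genes. They were 35.4% and 35.8% of genes with a mean of at least 8 tested alone. With IL-22, 5 of 77 mitochondrial ribosomal protein genes and 5 of 24 import genes rose. The shares for IL-22 were 5.39% of all genes and 12.8% of genes with a mean of at least 8 tested alone. Of the 13 mitochondrially encoded subunits 2 were measured, ND3 and COX2, and neither passed in these comparisons.

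**Figure D5:**
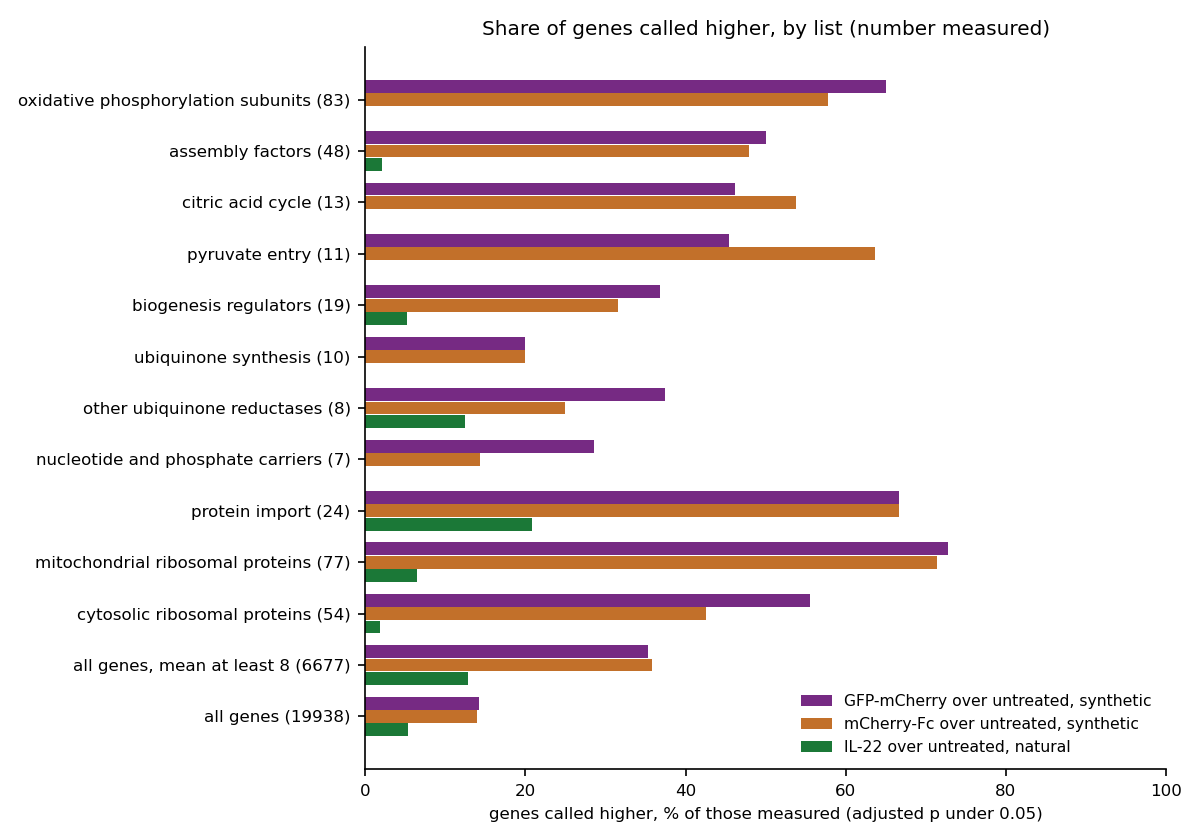
Share of measured genes called higher in each list, for GFP-mCherry over untreated and mCherry-Fc over untreated synthetic cells and IL-22 over untreated natural cells, with the number measured in brackets. The subunits stand at 54 and 48 of 83 with GFP-mCherry and mCherry-Fc and at 0 with IL-22, and all genes at 14.2%, 14.0% and 5.39%.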

How the data were processed

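RNA was measured on 26 arrays in 5 groups taken from the titles. The values deposited by the authors are log2 intensities per probe set, made with Expression Console 4.0 per the submitters' processing notes; the summarisation method, background correction and normalization are not given in the sources used here. Of 35556 probe sets, 21789 carry 1 symbol, 1621 several and 12146 none. The brightest probe set by mean stood for each of 19938 genes. A linear model over the 5 groups was fitted with limma 3.58.1 in R 4.3.3, with Benjamini-Hochberg adjustment over all genes and 7 comparisons, and was tested on simulated data. Members and gene lists were chosen with earlier results of these data known. Named were a set of core subunits and isoform families, per comparison the 3 called members of each complex with the smallest p in each direction and the 5 largest called changes, and per gene list the 2 called members with the smallest p in each direction, with a set of biogenesis regulators. Other genes were named after their values were seen. The model held group means only and took no number as pairing, and the replicate number was a block only among the alternatives. Same-numbered arrays correlated at 0.31 to 0.62 for IL-22, 0.26 to 0.47 for mCherry-Fc and 0.11 to 0.27 between the synthetic ligands. For GFP-mCherry they correlated at -0.15 to 0.42. Arrays of different numbers correlated at -0.55 to 0.36 for IL-22, -0.55 to 0.52 for mCherry-Fc and -0.32 to 0.31 between the synthetic ligands. For GFP-mCherry such arrays correlated at -0.41 to 0.37. Both signs thus occurred between different numbers, and whether they follow the low and high number ranges was not tested. Alternatives were other scalings, filters, priors, probe set means, blocks, number ranges and left-out arrays. Promoters came from RefSeq, GRCm38.p6. The number of arrays limits the precision.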

Additional observations from a re-analysis of the deposited data

Results flagged for a closer look

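Arrays were screened for values apart from the rest of their group. Of 230 groups of values examined, 11 had a highest or lowest array whose gap to its nearest neighbour passed Dixon's 95% critical value. Chance alone flags about 5% of groups, so 11 is about the number that chance gives. Cytochrome c, which is also its own complex here and so is counted under both, was low on IL-22 array 1, at 10.64. Uqcrfs1 was marked on 3 arrays, at 9.33 on IL-22 array 2, 9.17 on untreated natural array 3 and 9.23 on untreated synthetic array 13. Ndufs1 was high on IL-22 array 3, at 9.58, and on GFP-mCherry array 13, at 10.19. The other marks were Cox6a2 at 8.83 on IL-22 array 5, Cox7a2 at 9.26 on GFP-mCherry array 11, Ndufb6 at 10.09 on GFP-mCherry array 9 and Ndufs5 at 8.66 on untreated natural array 5.

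The responses of the synthetic and the natural receptor cells differed by limma's test of the difference itself. The GFP-mCherry response was above the IL-22 response for 37 members and below it for 1, against 9.23% and 4.40% of all genes. The mCherry-Fc response was above the IL-22 response for 23 and below it for 1, against 8.76% and 4.60%. Among genes with a mean of at least 8 tested alone, 26.5% of genes were above with GFP-mCherry and 26.1% with mCherry-Fc. Among the members named, the largest log2 differences of the GFP-mCherry response over the IL-22 response were those of Uqcrq (0.71), Ndufs5 (0.69), Cox5a (0.63), Atp5k (0.60), Ndufa13 (0.58), Ndufa4 (0.57), Cox8a (0.54), Cox5b (0.51), Uqcr11 (0.50), Ndufb8 (0.48) and Atp5d (0.47). Smaller ones were those of Atp5l (0.45), Uqcr10 (0.40), Cox6a1 (0.40), Cox7a2 (0.38), Cox4i1 (0.34), Cyc1 (0.30), Sdhd (0.29), Sdhb (0.29), Cox6b1 (0.27), Atp5b (0.25) and Ndufv1 (0.24). The difference was below 0 for Cox8c (-0.27). Among the members named, the largest log2 differences of the mCherry-Fc response over the IL-22 response were those of Ndufs5 (0.61), Cox5a (0.58), Uqcrq (0.56), Ndufa13 (0.52), Atp5k (0.49), Cox5b (0.49), Ndufa4 (0.46) and Cox8a (0.45). Smaller ones were those of Atp5d (0.38), Ndufs6 (0.36), Atp5l (0.36), Cox6a1 (0.32), Uqcr11 (0.31), Cox7a2 (0.28) and Sdhd (0.27). The difference was below 0 for Cox8c (-0.34).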

How the results depend on the processing

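Among the members named by rule, no call reversed under any alternative run. The share of all genes called also moved with the setting. With GFP-mCherry, 16.7% of all genes rose in low replicate numbers and 11.6% in high ones, against 14.2% with all arrays. The counts of members below therefore do not tell whether a shift was particular to the members. Numbers of members called differed from those above as follows. For IL-22, taking the mean of probe sets gave 1 higher, testing genes with a mean of at least 8 alone gave 1 higher and 1 lower, low replicate numbers alone gave 1 lower, and leaving out 1 array gave 0 to 3 lower and 0 higher. For GFP-mCherry against untreated, quantile normalization gave 2 lower, fitting only the groups compared 2 lower and low numbers alone 3 lower, with 49 to 57 higher when 1 array was left out. For mCherry-Fc against untreated, low numbers alone gave 31 higher, and 1 and 0 were lower with a mean of at least 6 and at least 8. Leaving out 1 array gave 41 to 50 higher and 2 to 3 lower. For GFP-mCherry against mCherry-Fc, 2 were higher after quantile normalization, 1 with the mean of probe sets, 2 with a mean of at least 8, 1 with the number range as a term, and 2 higher and 1 lower in low numbers. For the excess of the GFP-mCherry over the IL-22 response, high numbers alone gave 10 higher. There 0 were lower after quantile normalization, median centring, a mean of at least 8, the trended robust prior, only the groups compared, the replicate block and high numbers, and 29 to 40 were higher and 0 to 1 lower when 1 array was left out. For that of mCherry-Fc over IL-22, high numbers gave 7 higher and 0 lower, low numbers 2 lower and a mean of at least 8 gave 0 lower, with 16 to 28 higher and 1 to 2 lower when 1 array was left out. For untreated synthetic against untreated natural cells, median centring gave 8 higher, a mean of at least 8 gave 20, only the groups compared gave 2, and the mean of probe sets gave 1 lower. Leaving out 1 array gave 3 to 16 higher and 2 to 3 lower. With the replicate block, 58 members were higher and 1 lower with GFP-mCherry (Sdha and Atp5a1 then passed, adjusted p = 0.0409 and 0.0238), 45 higher and 2 lower with mCherry-Fc, 0 with IL-22, 0 between the synthetic ligands, and 34 higher with 0 lower and 24 higher with 1 lower for the response differences. The block could not be fitted between untreated lines, which share no replicate number. Number ranges and left-out arrays hold fewer arrays, and the cause of differing counts was not tested. With 3 arrays per group in either range, 31 members rose with mCherry-Fc in low numbers and 44 in high numbers.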
